A study of Mus musculus with 10 samples.

Results

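The AP-1 family of transcription factors was followed in gastrocnemius muscle of young and aged mice through 10 genes, namely Fos, Fosb, Fosl1, Fosl2, Jun, Junb, Jund, Atf3, Maff and Batf, of the 37947 gene symbols in the expression table. They were chosen by name, and each gene was read from the transcript row with the highest mean over the 10 libraries, so the level over all libraries selected the row. The family was proposed with results of these data already known, so its differences with age are given below as a description. Of the 10 genes, 9 were above 0 in at least 1 library, and together they held 16 of the 92251 transcript rows. The table holds log2 FPKM (fragments per kilobase of transcript, scaled to the mapped fragments of the library) for 5 young (6 months) and 5 aged (24 months) male C57BL/6 mice, with 1 poly-A RNA library from each mouse. The labels name no genetic change or treatment in either group, and RNA of whole muscle does not separate fibers from other cells. Expression at or under an FPKM of 1 appears as 0.

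AP-1 is a dimer of basic leucine zipper (bZIP) proteins, usually a Fos protein with a Jun protein, that binds the DNA element TGACTCA, while dimers with ATF and CREB proteins prefer TGACGTCA. Fos, Fosb, Jun, Junb and Atf3 are immediate early genes, which are transcribed within minutes of growth factor, stretch, contraction or stress signals through MAP kinases, and their mRNAs are short-lived. Jund is present more steadily in many tissues, the small Maf protein Maff lacks a transactivation domain of its own, and Batf acts mainly in lymphocytes.

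Upstream sequences are shown for 4 members whose mean was higher in aged muscle and for Jun, whose mean was not. Such genes are known to be controlled through bZIP and core elements. Of the searched letters, the stretch of Jun held only CCAAT, and those of Atf3 and Maff held only TGACG or TGACGTCA. Each is the 150 bases before the RefSeq start in the direction of transcription (GRCm38.p6), with matches to the searched letters in capitals. They lie at chr12:85473740-85473889 (plus strand) for Fos, chr8:84978749-84978898 (minus strand) for Junb, chr1:191183334-191183483 (minus strand) for Atf3, chr15:79347370-79347519 (plus strand) for the window of Maff with the most matches among its 3, and chr4:95052223-95052372 (minus strand) for Jun.
Fos: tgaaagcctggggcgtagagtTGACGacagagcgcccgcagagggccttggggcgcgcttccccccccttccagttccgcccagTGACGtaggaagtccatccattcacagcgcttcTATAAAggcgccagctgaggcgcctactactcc
Junb: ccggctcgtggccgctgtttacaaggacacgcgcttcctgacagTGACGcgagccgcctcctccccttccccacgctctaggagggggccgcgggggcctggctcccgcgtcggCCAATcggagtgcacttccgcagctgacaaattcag
Atf3: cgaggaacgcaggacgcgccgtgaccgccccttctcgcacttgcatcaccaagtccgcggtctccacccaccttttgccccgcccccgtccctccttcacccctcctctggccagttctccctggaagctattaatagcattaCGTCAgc
Maff: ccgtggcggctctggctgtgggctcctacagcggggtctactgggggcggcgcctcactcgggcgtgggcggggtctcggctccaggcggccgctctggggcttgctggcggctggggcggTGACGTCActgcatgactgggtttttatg
Jun: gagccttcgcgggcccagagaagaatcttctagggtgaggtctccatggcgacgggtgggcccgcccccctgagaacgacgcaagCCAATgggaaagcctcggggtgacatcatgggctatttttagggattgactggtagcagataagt
The search covered 250 bases before to 50 after the start of 9 members, on both strands, since the table gave no window for Fosl1. The shares beside the counts are those of all genes with a window. The shorter element TGACG was found in 6 of the 9, namely Fos, Fosb, Junb, Atf3, Maff and Batf (23.0% of genes), and it overlaps the full element TGACGTCA, which was found in Maff (2.03%). TGACTCA was found in 0 of the 9 (5.95%), and the CArG box, the site of serum response factor, in 0 of the 9 (1.81%). CCAAT was found in Jun, Junb and Atf3 (41.1%) and TATAAA in Fos and Junb (15.7%). The CCAAT of Atf3 and the TATAAA of Junb lay at or after the start, outside the stretches shown. The windows of Fosl2 and Jund, whose means were also higher in aged muscle, held none of these letters. These are letter matches within 1 short window and say nothing of binding. Sites further upstream were not searched, so a count of 0 does not mean that a gene lacks the element.

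The libraries held 19886361 to 34554355 fragments as recovered from the steps between low values, and the precision of a low row follows from them. On 1 kb of transcript an FPKM of 1 was worth 19.9 to 34.6 reads. The deepest 2, young library 3 and aged library 3, had the fewest rows above 0, 35024 and 29878, against 38855 to 43296 in the others. Where they decide a value for a member, it is also given without them. Over all 38059 rows with a mean FPKM of at least 1, limma with Benjamini-Hochberg adjustment called 3 higher in aged muscle (0.00788%) and 0 lower (0%). With the library number as a replicate block it called 0 higher. At an unadjusted p under 0.05 there were 1482 rows higher and 281 lower, a balance that became 968 and 511 with median of ratios scaling and 755 and 718 with quantile normalization. No member was among the 3. The groups did not overlap in 476 rows that were higher in all aged libraries (1.25%) and in 111 that were lower in all of them (0.292%). These numbers were 325 and 259 with median of ratios scaling and 297 and 294 with quantile normalization, so the excess of higher rows depended on the scaling.

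**Figure D1:**
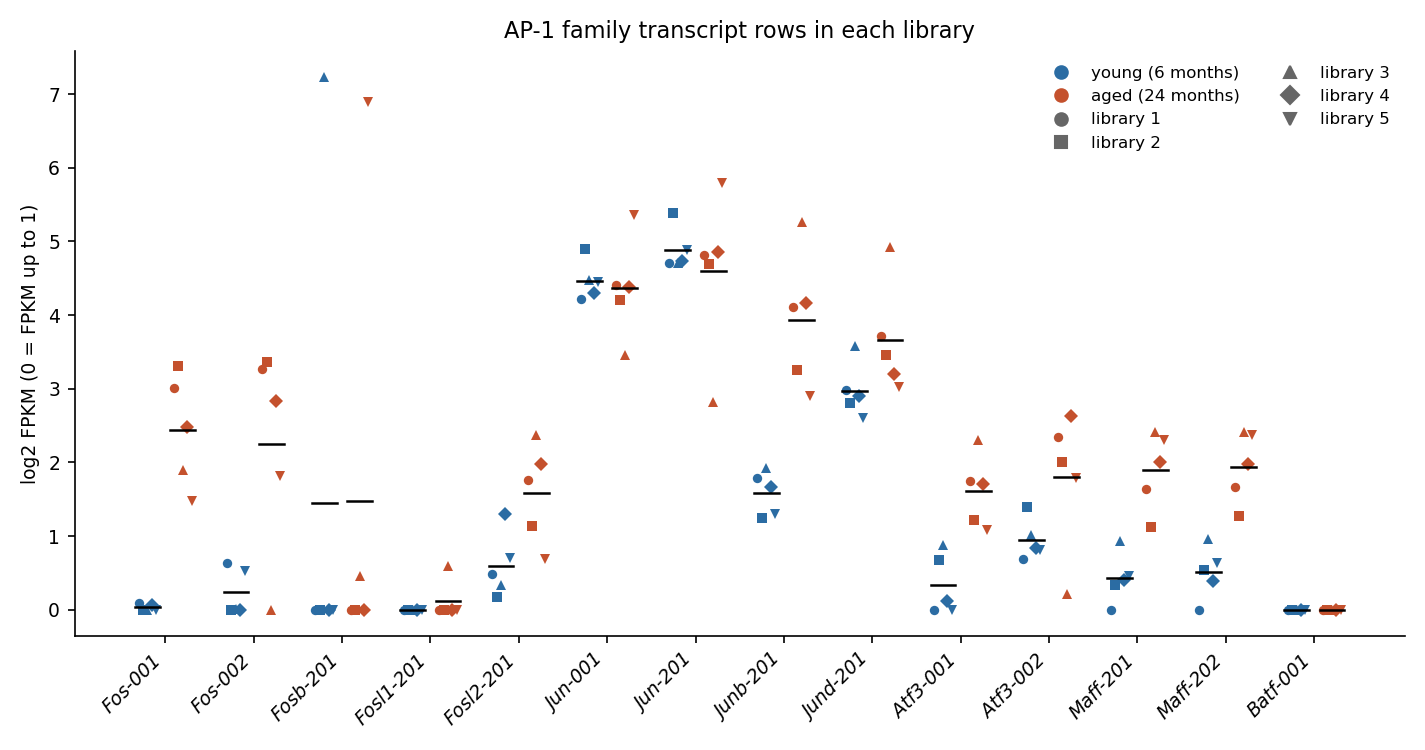
Log2 FPKM of the highest-mean and the longest row of each AP-1 member in the 5 young (blue) and 5 aged (red) libraries, with the marker shape giving the library number and the black line the group mean. Junb and Maff separate the groups, Jun does not, and Fosb is above 0 in 1 young and 2 aged libraries.

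Fos, the founding partner of the Jun proteins, lies at chr12:85473890-85477274. Its row with the highest mean, Fos-002, is a short non-coding transcript of 631 bases inside the gene, so the longest row, the protein-coding Fos-001 of 2108 bases, is given with it; that row was chosen after the values were seen. In the young libraries, in the order 1 to 5, Fos-001 was at 0.095, 0, 0, 0.059 and 0 log2 FPKM. In the aged libraries, in the same order, it was at 3.01, 3.31, 1.89, 2.48 and 1.48. All 5 aged libraries lay above all 5 young ones, aged library 5 being the lowest. These aged values rest on 362, 474, 249, 313 and 119 reads, and the young values above 0 on 46 and 50 reads, at or near the limit of an FPKM of 1. The difference in mean log2 FPKM was 2.41 (limma SE 0.32, n = 5 per group), with an adjusted p of 0.0915 by limma over all rows and 0.297 with the replicate block. Since the young values are censored at an FPKM of 1, their fold is not fixed by this table.

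The short row Fos-002 was at 0.63, 0, 0.013, 0 and 0.52 in the young libraries and at 3.27, 3.37, 0, 2.83 and 1.82 in the aged ones. Its groups overlapped through aged library 3 alone, where it was listed at 0 while Fos-001 had 249 reads. The difference was 2.02 on the log2 scale (SE 0.58, limma adjusted p = 0.811). Without aged library 3 it was 2.59 with an adjusted p of 0.0313, the one setting of limma in which a highest-mean member row passed the threshold.

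Fosl2 (Fra-2), at chr5:32136472-32157840, is a Fos-related protein with no strong transactivation domain. It was at 0.48, 0.17, 0.33, 1.29 and 0.70 log2 FPKM in the young libraries and at 1.76, 1.14, 2.37, 1.97 and 0.68 in the aged. In 3 aged libraries it exceeded the highest young value, and aged libraries 2 and 5 lay within the young range. The difference was 0.99 (SE 0.34, limma adjusted p = 1.0).

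Fosl1 (Fra-1), at chr19:5447698-5455938, was listed at 0 in 9 libraries and at 0.60 in aged library 3. Its gene span, introns included, shares 2767 bases with that of Ccdc85b on the opposite strand. The library kit did not mark strand, so reads from any shared exon cannot be told apart. Its row did not pass the filter on low values.

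Fosb, at chr7:19302696-19310118, encodes a relative of Fos best known from neurons. It was listed at 0 in 4 young libraries and at 7.23 in young library 3, and in the aged libraries it was at 0, 0, 0.46, 0 and 6.89. The group means were 1.45 ± 3.23 (SD) in young and 1.47 ± 3.03 in aged muscle, and the difference was 0.024 (SE 1.75). Each mean rests on 1 library. In young library 3 the 19420 reads given to Fosb were within 0.0463% of the lowest count, 19411 reads, in a run of 61 neighbouring rows from 15 genes, from Dmpk to Klc3. The run begins within the rows of Dmpk, after the short row of Mir3100, which was listed at 0. Beyond it, the other rows of Dmpk (20548 to 27130 reads) and the 4 rows of Dmwd (19610 to 20779 reads) were also high in that library. In aged library 5 the 8972 reads of Fosb were within 0.0334% of the lowest count, 8969 reads, in a run of 34 rows from 6 genes, from Fosb to Klc3. The runs leave aside Rtn2 and A930016O22Rik, which had high counts in every library. In young library 3, 32 rows of the run with a median under 100 reads in the other libraries had 19411 to 19691 reads, and in aged library 5, 22 such rows had 8969 to 9051. The count of Fosb in these 2 libraries was thus almost the same as that of its neighbours, and whether any of it came from Fosb mRNA was not tested. When young library 3 and aged library 5 were omitted, a step chosen after seeing the data, the difference became 0.115, from aged library 3 alone, where Fosb had 164 reads. Without both libraries numbered 3 the difference was 1.72, from aged library 5 alone, and without young library 3 it was 1.47.

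**Figure D2:**
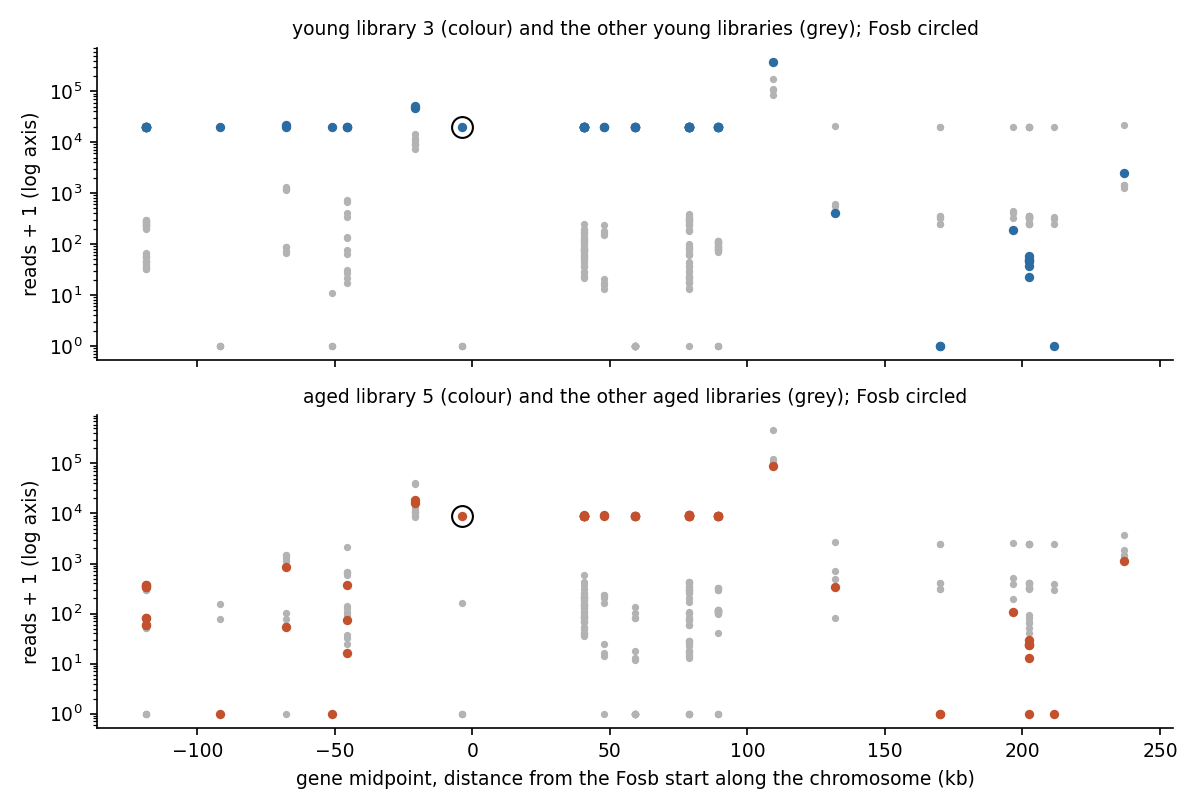
Reads plus 1 (log axis) of rows near Fosb against the distance of the gene's midpoint from the Fosb start in kb, for young library 3 and aged library 5 (colour) and the other libraries of the same age (grey). Fosb (circled, 19420 and 8972 reads) lies on a flat line of near-equal counts with its neighbours.

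Of the Jun family, Jun, the partner of Fos that also forms dimers with itself, had the highest level of the 10 genes and did not separate the groups. It lies at chr4:95049036-95052222. Its highest-mean row, Jun-201, was at 4.71, 5.39, 4.70, 4.74 and 4.88 log2 FPKM in the young libraries. In the aged libraries it was at 4.81, 4.69, 2.82, 4.86 and 5.80. Aged library 3 was the lowest and aged library 5 the highest of all 10. The difference was -0.29 (SE 0.46, limma adjusted p = 1.0), 0.16 without aged library 3 and 0.11 without both libraries numbered 3, so its sign rested on that library. For the longest row, Jun-001, which is protein-coding, the difference was -0.11 (SE 0.31). Jun shares 689 bases with the antisense gene Junos, which has no row in the table, and reads from there cannot be told apart either.

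Junb, which can restrain Jun activity and is induced by many of the same signals as Fos, lies at chr8:84976909-84978748. It was at 1.79, 1.25, 1.93, 1.67 and 1.30 log2 FPKM in the young libraries, from 90 to 242 reads. In the aged libraries it was at 4.11, 3.25, 5.26, 4.16 and 2.90, from 277 to 2238 reads. All aged libraries lay above all young ones, with aged library 3 the highest and aged library 5 the lowest. The group means were 1.59 ± 0.30 and 3.93 ± 0.92 (SD, n = 5), a difference of 2.35 (SE 0.40) or 5.09-fold, with an adjusted p of 0.273 by limma. Junb shares 351 bases with Prdx2 on the other strand, and reads from this stretch cannot be told apart.

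Jund, a Jun protein found in most tissues, lies at chr8:70697739-70700616. It was at 2.98, 2.81, 3.57, 2.90 and 2.60 in the young libraries and at 3.72, 3.46, 4.92, 3.20 and 3.02 in the aged. The highest value of each group was in its library 3, and 2 aged libraries exceeded young library 3. Set against the young library of its own number, each aged library had the higher value, by 0.31 to 1.35, as was so in 1158 of 10162 genes tested (11.4%). The difference was 0.69 (SE 0.35, limma adjusted p = 1.0) and 0.38 without aged library 3. Jund shares 919 bases with the antisense gene Gm11175, and reads from there cannot be told apart.

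Atf3, a stress-induced member of the ATF/CREB branch that pairs with Jun proteins, lies at chr1:191170296-191183333. Its highest-mean row, Atf3-002, is a non-coding transcript of 517 bases, and Atf3-001, of 1984 bases, is the coding one. Atf3-002 was at 0.69, 1.39, 1.01, 0.83 and 0.81 log2 FPKM in the young libraries and at 2.35, 2.01, 0.21, 2.63 and 1.78 in the aged. Here 4 aged libraries were above every young one and aged library 3 was below them all, from 19 reads. The difference was 0.85 (SE 0.40, limma adjusted p = 1.0), and 1.25 without aged library 3. Atf3-001 was at 0, 0.68, 0.88, 0.12 and 0 in young and at 1.74, 1.21, 2.31, 1.71 and 1.08 in aged libraries, with no overlap. Its difference was 1.28 (SE 0.28, limma adjusted p = 0.47), and aged library 3, the lowest for the short row, was the highest for this one.

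In aged library 3 the short rows of 3 members held an unusually small part of the reads of the longest row. Atf3-002 held 6.1% of the reads of Atf3-001 in aged library 3 and 28.6% in young library 3, against 39.7% to 49.4% in the other libraries with both rows above 0. Jun-201 held 37.5% of the reads of Jun-001 in aged library 3 and 67.7% in young library 3, against 76.9% to 81.7% elsewhere. The short rows of Fos and Atf3 end 1210 and 1129 bases before the 3′ end of their gene. The longest rows of Fos and Atf3 separated the groups while their highest-mean rows did not, and the cause was not tested.

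**Figure D3:**
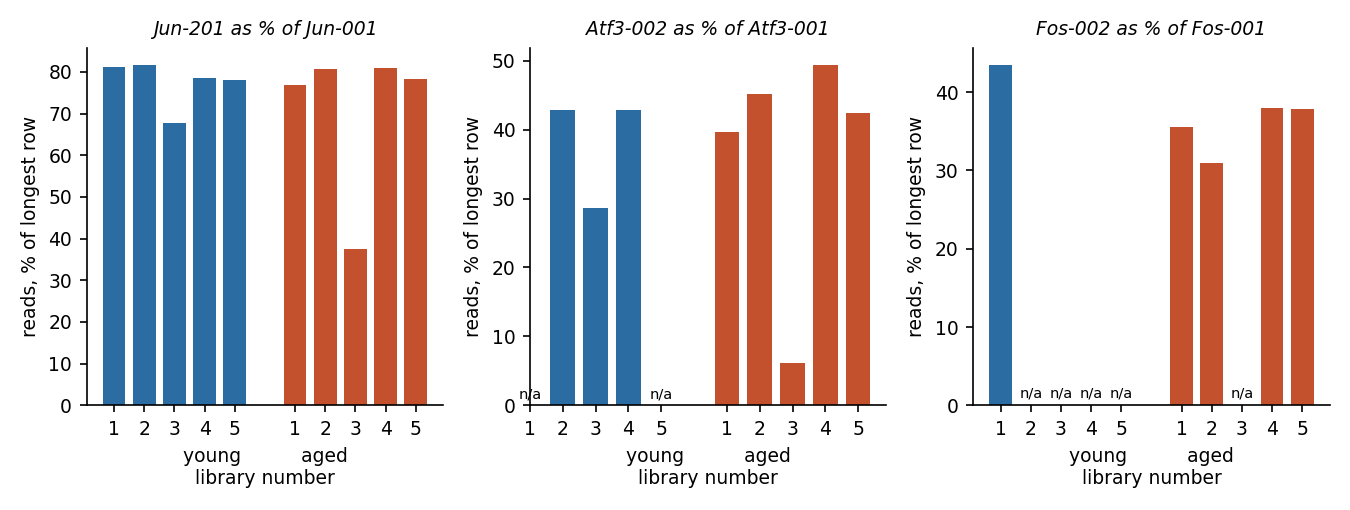
Reads of the highest-mean row as a percentage of the reads of the longest row of Jun, Atf3 and Fos in each young (blue) and aged (red) library, with n/a where either row was listed at 0. Aged library 3 is the lowest for Jun (37.5%) and Atf3 (6.1%).

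Maff, at chr15:79346621-79359078, encodes a small Maf protein that pairs with other bZIP proteins. Its row Maff-202 was at 0, 0.53, 0.96, 0.39 and 0.64 log2 FPKM in the young libraries and at 1.66, 1.27, 2.42, 1.98 and 2.38 in the aged. All aged libraries lay above all young ones. The difference was 1.44 (SE 0.26), with an adjusted p of 0.355 by limma, on 57 to 128 reads in the young libraries above 0 and 104 to 323 in the aged. The other row, Maff-201, gave 1.47 (SE 0.27). Batf, at chr12:85686720-85709087, was listed at 0 in all 10 libraries.

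**Figure D4:**
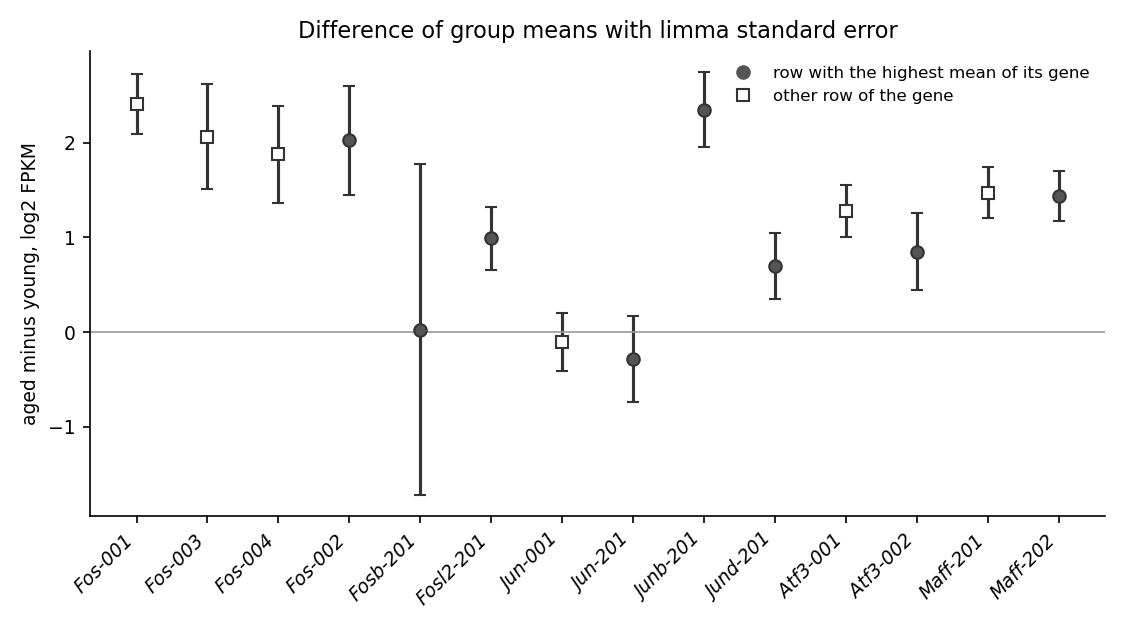
Difference of group means (aged minus young, log2 FPKM) for the rows of the AP-1 members that passed the filter on low values, with the limma standard error; filled circles are highest-mean rows and open squares other rows. Fos, Junb, Atf3 and Maff lie above 0 in every row shown, and the Jun rows lie at -0.29 and -0.11.

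Of the 10 members, 8 passed the filter, Fosl1 and Batf being left out, and every aged library was above every young one in 2 of them, Junb and Maff, beside 211 of 10162 genes (2.08%) read in the same way. With quantile normalization, an alternative chosen after seeing the data, Maff no longer separated the groups. With the longest rows there were 4, Fos, Junb, Atf3 and Maff, a set for which only the share over all rows, 1.25%, was at hand. With the mean over all rows of a gene the number was also 4, beside 1.64% of all genes read in that way. Without aged library 3 there were 4 among the highest-mean rows, Fos, Junb, Atf3 and Maff, while over all rows the number went from 476 to 1992 (5.23%). Without both libraries numbered 3 there were 5, Jund being added, while over all rows there were 3095 (8.13%). Within same-numbered pairs of libraries the aged value was higher in 5 of 5 for Junb, Jund and Maff, in 4 of 5 for Fos, Fosl2 and Atf3, in 3 of 5 for Jun, in 1 of 5 for Fosb, which was lower by 6.77 in another pair, and in 1 of 5 for Fosl1. Over the genes tested it was higher in 5 of 5 pairs in 11.4% and in at least 4 of 5 in 36.7%. In 0 members did every aged library lie below every young one. By the rule of the study's methods, a log2 difference over 1 and an unadjusted p under 0.05 from the 2-sample equal-variance test, 218 of 46432 rows were called higher (0.47%) and 35 lower (0.0754%). With 1 row per gene, 106 of 12534 genes were called higher (0.846%), among them 3 members, Fos, Junb and Maff. The median difference over the 10 members was 0.77 on the log2 scale, and 0.849 over the 9 above 0, beside 0.077 over all 12534 genes above 0.

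FPKM is per length, so the levels of the members can be ranked. In young muscle Jun stood first at 4.88 ± 0.29 log2 FPKM (SD, n = 5), then Jund at 2.97 ± 0.37 and Junb at 1.59 ± 0.30, and both gaps exceeded the larger SD of the pair. Fosb came next at 1.45 ± 3.23, from young library 3 alone. With Fosb in the order no pair of neighbours below Junb differed by more than its larger SD, down to Fos at 0.23 ± 0.32. Without it, the gap from Junb to Atf3 was 0.639, above the larger SD of 0.301. In aged muscle the order was Jun (4.6 ± 1.09), Junb (3.93 ± 0.92) and Jund (3.66 ± 0.75), none of them apart beyond the SD. With Fosb (1.47 ± 3.03) in the order, only the gap of 1.41 from Jund to Fos (2.26 ± 1.40) exceeded the larger SD of its pair. Without Fosb, the gap of 1.46 from Fosl2 to Fosl1 also exceeded it (0.673). By the mean, Junb thus stood above Jund in aged muscle, within the SD, and below it in young muscle. In aged libraries 2 and 5 Junb was the lower of the pair. For the highest-mean rows, aged library 3 gave the highest aged value for Fosl2, Junb, Jund and Maff and the lowest for Fos, Jun and Atf3, and aged library 5 gave the lowest for Fosl2, Junb and Jund and the highest for Jun. For the longest rows, aged library 3 was the highest for Fosl2, Junb, Jund, Atf3 and Maff and the lowest for Jun, and aged library 5 was the lowest for Fos, Fosl2, Junb, Jund and Atf3 and the highest for Jun.

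Other immediate early genes, a list of 21, included 19 above 0, of which 16 had a higher mean in aged muscle, as had 65.5% of all 12534 genes above 0, with a median difference of 0.901. Of the 15 that passed the filter, 0 were called by limma, 10 were higher with an unadjusted p under 0.05 (6.05% of all genes tested), and in 3 all aged libraries lay above all young ones (2.08% of all genes tested). These 3, Ier3, Btg2 and Klf6, and Egr1 were named after their values were seen. Egr1, a zinc finger factor induced with Fos, was at 1.34, 0, 0.21, 0 and 0 in young and at 5.17, 3.92, 5.88, 4.00 and 0.23 in aged libraries, so aged library 5 lay within the young range. Its difference was 3.53 (SE 0.89, limma adjusted p = 0.659). Btg2, an antiproliferative gene, differed by 1.72 (SE 0.29). The most abundant of the list, Nr4a1, an orphan nuclear receptor, and Dusp1, a MAP kinase phosphatase, differed by -0.10 (SE 0.34) and -0.12 (SE 0.23).

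AP-1 target genes, 20 in all and mostly matrix proteases, cytokines and growth regulators, included 17 above 0, with a higher mean in aged muscle in 16 (65.5% of all genes above 0) and a median difference of 0.736. None of the 14 that passed the filter was called by limma, and 5 were higher with an unadjusted p under 0.05, beside 6.05% of all genes tested. The most abundant were Vim, an intermediate filament gene, with a difference of 0.43 (SE 0.22), and Mt1, a metallothionein, with 1.30 (SE 0.88). Mmp9, Mmp13 and Il6 were listed at 0 throughout.

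Of 29 upstream kinases and regulators, 27 were above 0, and 19 of these had a lower mean in aged muscle (34.5% of all genes above 0) and 8 a higher one, with a median of -0.061. None of the 23 that passed the filter was called, and 1 was lower with an unadjusted p under 0.05, beside 0.876% of all genes tested that were lower and 6.05% that were higher. Map2k2, the MAP kinase kinase MEK2, differed by -0.38 (SE 0.21) and Mapk12, the p38 gamma kinase of muscle, by -0.0053 (SE 0.14). Of 23 other bZIP partners, 22 were above 0 and 18 had a higher mean (65.5% of all genes above 0), with a median of 0.186; 0 of the 19 that passed were called and 0 had an unadjusted p under 0.05. Nfe2l1, a regulator of proteasome genes, differed by 0.13 (SE 0.17), and Atf4, the effector of the integrated stress response, by 0.20 (SE 0.25).

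**Figure D5:**
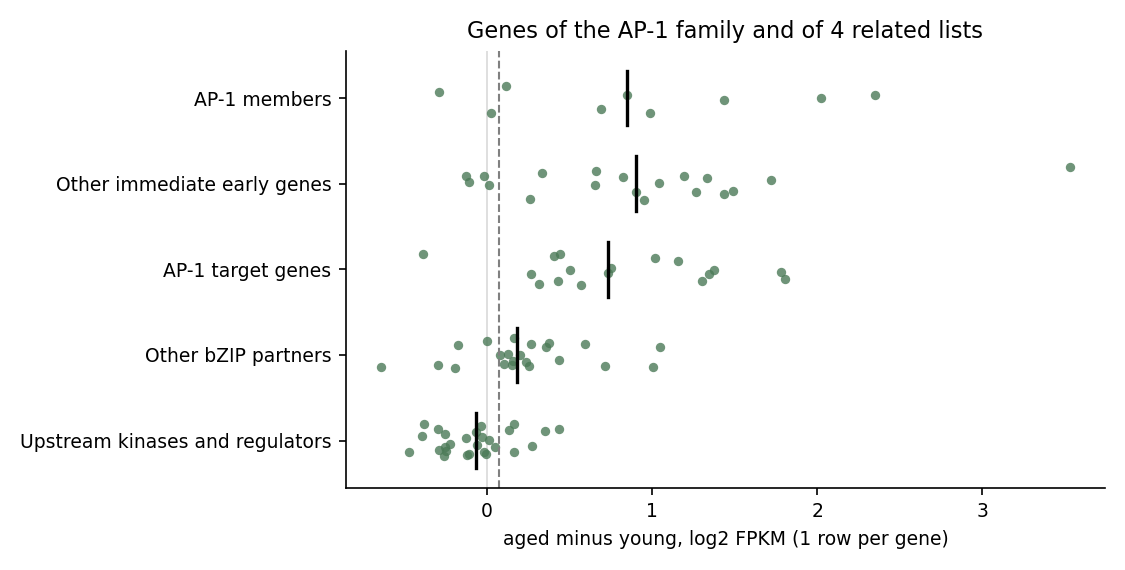
Difference of group means (aged minus young, log2 FPKM, 1 row per gene) for the genes above 0 in the AP-1 family and 4 related lists; each dot is a gene, the black bar the list's median and the dashed line the median over all genes (0.077). The medians are 0.849 for the members, 0.901 for other immediate early genes and 0.736 for target genes, and -0.061 for upstream kinases and regulators.

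Markers of other cells are given because whole muscle was sequenced, where fewer cells of a type and less RNA per cell cannot be told apart. Fiber markers summed to 94100 to 117000 FPKM in young and 86300 to 116000 in aged libraries, so the label of skeletal muscle holds in the data. Macrophage markers summed to 11.6 to 27.4 FPKM in young and 21.0 to 93.4 in aged libraries. The mean was higher in 6 of the 6 markers present (65.5% of all genes above 0), where Adgre1 is listed by its older symbol Emr1. Of these, Emr1, Itgam and Cd14 were at 0 in every young library and could not be lower in aged muscle. Emr1 and Itgam were above 0 in aged library 4 alone. The summed markers of neutrophils (0 to 3.21 FPKM) and of T and B cells (0 to 4.57 FPKM) were at 0 in every young library, with Ly6g, Mpo, Cd3e, Cd4 and Cd8a at 0 throughout. Endothelial markers summed to 36.0 to 40.9 and 31.9 to 51.6 FPKM, and fibroblast markers to 142 to 242 and 100.2 to 247 FPKM. Of these, Dcn differed by 0.10 (SE 0.29), Pdgfra by 0.059 (SE 0.25), Col1a1 by -1.12 (SE 0.56) and Col3a1 by -1.03 (SE 0.37), and only Col3a1 was called lower by the rule of the study's methods. By the same rule 2 macrophage markers were called higher, beside 0.846% of all genes. They were Cd68, which differed by 1.41 (SE 0.38), and Lyz2, by 1.22 (SE 0.39). The highest macrophage sum was in aged library 4, where the short row Atf3-002 was also highest, whereas the coding row Atf3-001 was highest in aged library 3. Of the other highest-mean rows, Fosl2, Junb, Jund and Maff were highest in aged library 3, Fos in aged library 2 and Jun in aged library 5. The part of these cells in the members' differences was not tested. Pax7 and Myf5 of satellite cells were listed at 0 throughout. The summed ranges in young and aged libraries were 2.74 to 6.4 and 3.23 to 10.2 FPKM for satellite cell markers, 38.4 to 131 and 46.2 to 103 for smooth muscle, and 89.8 to 205 and 103 to 409 for erythroid cells. They were 13.6 to 101 and 21.2 to 81.5 for adipocytes, and 9.88 to 77.9 and 15.9 to 128 for Schwann cells.

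Among 10597 other genes above 0 in at least 5 libraries, those whose log2 values followed the short Fos row closely over the 10 libraries included 1700060J05Rik (Pearson r = 0.939), Ttc9 (0.934), Nnt (0.932) and Pkp2 (0.928). With deviations from the group means the r values were 0.97, 0.852, 0.857 and 0.852. The 5 genes nearest to the longest row Fos-001 were Emb, Sh2d4a, Ighg2c, Mfsd7b and Rgs2 (r = 0.934 to 0.98), none of which is named above for the short row. For Jun they were BC042782 (0.986), Gm7008 (0.985), Gtf2ird2 (0.98), Brat1 (0.979) and Zscan25 (0.976), with 0.985, 0.987, 0.979, 0.987 and 0.984 for deviations from the group means. The points share their library, and the likeness is a description of these libraries.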

How the data were processed

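Per the study's methods, poly-A RNA from gastrocnemius muscle was sequenced, mapped to mm10 with TopHat2, and summarized as FPKM per gene with RefSeq models. The values the authors deposited, and which were used here, are instead log2 FPKM by Ensembl transcript, 1 column per mouse. The program that counted the reads was not given in the sources used here. Columns were matched to mice by age and number. The 10 members and all gene lists were chosen with earlier results of these data known. Named genes were all members, the 2 most abundant genes of each list and any past the threshold, with 4 immediate early genes and the fibroblast markers added after their values were seen, and the 5 genes most like Fos and like Jun, of which 1 is not reported here.

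Rows with a mean FPKM of at least 1 (0 counted as FPKM 0) were fitted with limma 3.58.1 in R 4.3.3, with Benjamini-Hochberg adjustment over 38059 rows and a threshold of 0.05. The table's 233 rows without a gene symbol were not left out, and they count as 1 gene where 1 row per gene was used. The fit was also run on simulated data with 200 changed rows, and no result given here rests on that run. Whole fragments were recovered from low values with a tolerance of 0.02 and used only to describe precision. Same-numbered young and aged libraries deviated together (correlations 0.131, 0.332, 0.695, 0.39 and 0.208, against a mean of -0.0376 for other combinations), so a replicate block was fitted too. Other scales, filters, scalings, rows and left-out libraries were tried. Positions and sequences are from RefSeq, GRCm38.p6, and were matched by symbol. With 1 library per mouse, p-values of the fit without the block measure the spread between libraries. That spread mixes differences between mice with whatever same-numbered libraries share.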

Additional observations from a re-analysis of the deposited data

Results flagged for a closer look

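In 4 of 25 groups of 5 libraries, 1 library of a member lay far from the other 4 by Dixon's criterion, which flags about 1 group in 20 by chance where values are continuous. With 4 libraries listed at 0, as for Fosl1 in aged and Fosb in young muscle, a lone value above 0 is flagged whatever its size. For Fosb they were young library 3, at 7.23 log2 FPKM with the other 4 at 0, and aged library 5, at 6.89 with the next at 0.46. These are the libraries in which Fosb shared its read count with neighbouring genes. For Fosl1 it was aged library 3, at 0.60 with the other 4 at 0, and for Jun-201 young library 2, at 5.39 with the next young library at 4.88.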

How the results depend on the processing

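Over all rows, 3 were higher and 0 lower in aged muscle. The number higher was 0 with median of ratios scaling, quantile normalization or the replicate block, 5 for rows above 0 in all 10 libraries or on the log2(FPKM + 1) scale, 10 with 1 row per gene, 11 without both libraries numbered 3, and 0 to 23 with each library left out. By the rule of the study's methods it was 218, with 35 lower. Past the threshold were 0 AP-1 members, 0 to 1 with each library left out (Fos, without aged library 3) and 3 by the study's rule. Immediate early genes counted 0 to 1 (Egr1, without aged library 5) and 6 by the study's rule, and AP-1 target genes 3 by that rule. The counts by that rule were out of 19 and 17 genes above 0, beside 106 of 12534 genes (0.846%) called higher. Members whose groups did not overlap numbered 2, and 2 to 4 with each library left out, 5 without both libraries numbered 3, 1 with quantile normalization (chosen after seeing the data), and 4 with the mean over all rows of a gene or, chosen after seeing the data, with the longest row. The place in the level order changed for 3 members with the mean over rows, 5 with the log2 of the mean FPKM and 4 with the longest row, also chosen after seeing the data.

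The sign turned for Jun, to 0.11 without both libraries numbered 3, with a range of -0.59 to 0.16 as each library was left out, and for Fosb, with a range of -1.33 to 1.47. The longest row Fos-001 passed the limma threshold without aged library 3 (adjusted p = 0.0357) and without aged library 5 (0.0257). These libraries held its lowest aged values, and the row was chosen after the values were seen. With any other library left out, its limma adjusted p was 0.197 to 0.423. The median over the 10 members stayed between 0.586 and 0.994 under every setting run. The causes of these changes were not tested. The replicate block changed no call of a member. The floor of the table at an FPKM of 1 limits Fos, Atf3 and Maff in young muscle.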
